A study of Mus musculus with 6 samples.

Results

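The cytosolic ribosomal protein genes encode the proteins of the ribosome that works in the cytosol, apart from the ribosome of mitochondria. They were taken as every gene whose symbol is Rpl or Rps with a number, or Rplp0, Rplp1, Rplp2 or Rpsa, on probe sets that the array's annotation gives to that gene alone. Kinases named Rps6k and pseudogenes were left out. This rule used names and no measured values. It found 33 genes of the 8251 genes named on the array, 16 of the large and 17 of the small ribosomal subunit, read by 47 probe sets. A probe set is the group of probes whose combined brightness, the intensity, stands for a transcript. Values of different probe sets cannot be ranked against each other.

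Total RNA of mouse double-negative thymocytes, the T cell precursors with neither CD4 nor CD8, was measured on 6 arrays. Of these, 3 came from RAG1/Ezh2 double mutant mice and 3 from RAG1-deficient mice, so both groups lack RAG1 function, without which antigen receptor genes are not assembled and thymocytes do not advance past this stage. Ezh2 is the methyltransferase of Polycomb repressive complex 2, and the comparison asks which transcripts differ when it is mutated too. The labels give neither the alleles, the driver of any deletion, strain, sex or age, nor whether the arrays of a group came from separate animals, so p-values measure the spread between the samples at hand, and that spread may be technical. The titles come in 3 wordings with 1 array of each group, called here the numbered, Rag and Thy pairs. Both Rag titles name T cells without the letters DN, and RAG1-deficient titles of the numbered and Thy wording end in WT, a term the labels do not explain. Values of a group are listed in the order numbered, Rag, Thy.

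A ribosome joins a small subunit, which reads the messenger RNA, to a large subunit, which forms the peptide bond. Ribosomal proteins are needed in near equal numbers in every growing cell. Many of their messengers start with a terminal oligopyrimidine (TOP) tract, a run of C and T through which mTOR signalling adjusts how well they are translated, a step that transcript levels do not show. In mice Rpl22 stands apart: most cells manage without it, whereas alpha-beta T cell precursors need it to pass the double-negative stage.

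Stretches around the annotated transcription starts are shown because many of these genes carry a long run of C and T there, whereas others, Rpl22 among them, do not. They come from the RefSeq promoter table of build GRCm38.p6, which held windows for 26 of the 33 genes. A run of 8 or more C or T within 20 bases before to 50 after a start was found in 18 of these 26 genes (69.2%), against 28.5% of all 27025 genes in the table, and 8 of the 26 had none. The search also takes runs that begin before the start or well after it, so a run found this way is not shown to be a TOP tract. Shorter runs, such as the longest one of Rplp0 with 7 bases, were not counted. A gene without a counted run is thus not shown to lack a TOP tract. Below, each stretch is 30 bases long and capitals mark that run. Rpl7a (chr2:26910788-26910817, plus strand) had the longest, 21 bases. Rpl13a (chr7:45128722-45128751, minus strand), Rps18 (chr17:33955648-33955677, minus strand) and Rps27 (chr3:90213632-90213661, minus strand) had runs of 14, 11 and 9. Neither start of Rpl22 (chr4:152324421-152324450 and chr4:152325711-152325740, plus strand) had such a run, nor did that of Rplp0 (chr5:115559452-115559481, plus strand), and these stretches are centred on the start and carry no capitals.
Rpl7a: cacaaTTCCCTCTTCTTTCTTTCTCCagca
Rpl13a: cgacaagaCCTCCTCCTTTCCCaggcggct
Rps18: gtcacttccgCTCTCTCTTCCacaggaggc
Rps27: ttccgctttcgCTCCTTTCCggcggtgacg
Rpl22, upstream start: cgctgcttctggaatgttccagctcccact
Rpl22, downstream start: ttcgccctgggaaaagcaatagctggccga
Rplp0: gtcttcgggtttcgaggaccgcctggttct

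Over the wider window from 250 bases before to 50 after the start, the letters CGGAAG, the core recognised by ETS-family factors, stood on either strand in 69.2% of the 26 genes and in 18.8% of all genes. The TATA box letters TATAAA stood in 15.4% against 15.7%, and the E-box letters CACGTG in 11.5% against 8.09%, again on either strand. A match of letters is a description of the sequence and not a bound site.

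The arrays differed in several measures. Ezh2 intensity was 291.5, 650.6 and 723.6 in double mutant thymocytes, compared with 1434.7, 1641.0 and 1789.5 in the RAG1-deficient arrays, without overlap. Ezh2 fell in the fit that pairs arrays by title wording (log2 difference -1.60, limma adjusted p = 0.0261), not in the fit without pairing (adjusted p = 0.332). The RAG1-deficient numbered array stood apart with a Cd8a intensity of 2973.0, against at most 81.3 on the other arrays. Cd8b1 had 75.3, 12.3 and 11.2 in double mutant thymocytes, compared with 8425.8, 164.4 and 45.3 in the RAG1-deficient arrays, with overlap. Cd4 lay lower in the double mutant in every pair (-1.29, -0.74 and -1.37). Its groups overlapped and it did not pass (paired limma adjusted p = 0.0827). The RAG1-deficient Thy array stood apart in the control for the 5' part of 18S ribosomal RNA, at 18830, against at most 334 on the other arrays. All 11 double-negative thymocyte marker genes on the array, among them Cd3e, Ptcra, Dntt and Rag1, passed the filter on low values on at least 1 probe set. Of their 15 tested probe sets 14 lay below 0, with a median log2 difference of -0.21, and 0 passed in either limma fit. With an unadjusted p below 0.05 in limma with pairing 4 were lower, beside 5.4% of all tested probe sets. Ptcra (-0.66) and the bright Rag1 probe set (-0.44) lay lower in the double mutant without overlap, beside 2.92% of all tested probe sets. Summed marker levels of natural killer and innate cells did not overlap between the groups, at 8110.3 to 10228.3 in the double mutant and 2943.2 to 4448.9 in the RAG1-deficient arrays, whereas those of the B lineage, myeloid, erythroid, antigen-presenting and stromal lists did. The natural killer sum rests on Gzma: without it the sums overlapped, at 1710.3 to 3128.0 in the double mutant and 1585.9 to 2285.5 in the RAG1-deficient arrays. In that list 4 probe sets lay above and 3 below 0, and Gzma and Gzmb rose in the paired limma fit (adjusted p = 0.00356 and 0.0261). All 8 antigen-presenting probe sets lay below 0, with a median log2 difference of -0.48, and 0 passed in either fit. Of the 8, 2 were lower without overlap (2.92% of all tested probe sets). In limma with pairing 3 were lower with an unadjusted p below 0.05 (5.4% of all tested probe sets). Of the 7 tested stromal probe sets 2 lay above and 5 below 0, with a median log2 difference of -0.024. Among them Pdgfrb rose by 1.23 on the log2 scale (limma with pairing, adjusted p = 0.0436). Its groups did not overlap, beside 4.21% of all tested probe sets that lay higher without overlap. The ratio of 3' to 5' actin signal, a measure of RNA integrity, was 1.99, 2.77 and 1.24 in double mutant thymocytes, compared with 1.91, 2.26 and 1.40 in the RAG1-deficient arrays (exact two-sided permutation p = 0.9). The part of these differences in the results was not tested. In bulk RNA, fewer cells of a type and less transcript per cell cannot be told apart.

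Of the 47 probe sets, 30 of 25 genes exceeded an intensity of 86.5 on at least 3 of the 6 arrays and were tested together with all others, 7642 in all. No cytosolic ribosomal protein gene passed the test as higher or lower in double mutant thymocytes. In the unpaired limma fit 0 of 30 passed an adjusted p of 0.05 as higher and 0 as lower, where 0.0393% of all tested probe sets were higher and 0% lower. In the paired limma fit the counts were again 0 and 0, where 0.563% of all were higher and 0.105% lower. With an unadjusted p below 0.05, 1 was higher and 0 lower in the unpaired fit, beside 2.29% and 0.903% of all tested probe sets. In the paired fit 2 were higher and 0 lower at that level, beside 7.73% and 5.4% of all. Groups without overlap, double mutant above, occurred in 1 of the 30 (4.21% of all), and below in 0 (2.92% of all). These shares are near the background of the array.

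Differences are log2(intensity + 23) of the double mutant minus the RAG1-deficient mean. They lay between -0.20 and 0.75, with 15 above and 15 below 0 and a median of -0.016. Over all tested probe sets 49.6% lay above 0, with a median of -0.0021. Scaling the arrays by quantiles instead gave 19 above and 11 below 0, with a median of 0.031. Within 0.25 of 0 lay 28 of the 30 (93.3%), against 65.3% of all tested probe sets. Most of the 30 were bright, and no comparison at matched intensity was made. The median was -0.016 for both subunits, over 14 probe sets of the large subunit (7 above and 7 below 0) and 16 of the small one (8 above and 8 below 0).

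The spread sets how large a difference in intensity these arrays could have missed. Among the 30, 21 had a mean intensity over 1000, a limit chosen after the values were seen, with values from 3218.3 to 63891.4. Their 95% intervals, each for 1 probe set without adjustment, reached at most from -0.89 to 0.96 in the unpaired fit and from -0.45 to 0.53 in the paired fit. All 21 intervals thus lay within 1 of 0 on the log2 scale, where 1 is a doubling of intensity. Whether intensity still follows the amount of transcript at such bright values was not tested. Among the 9 others the upper bounds reached 2.06 without pairing and 1.11 with it, beyond a doubling.

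**Figure D1:**
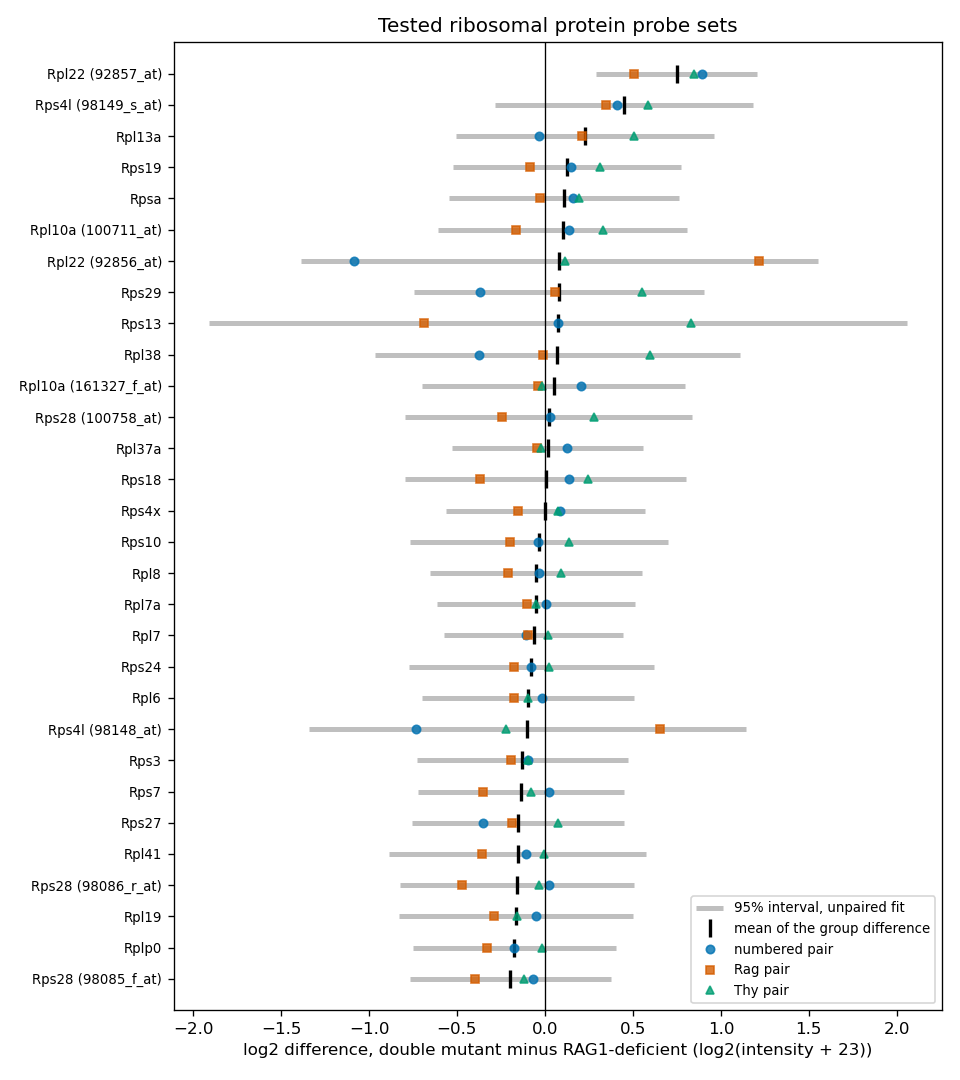
Log2 difference, double mutant minus RAG1-deficient, of the 30 tested probe sets (horizontal axis), 1 row each, with a black tick at the difference, a grey bar for the 95% interval of the unpaired limma fit and a coloured symbol for each of the 3 title pairs. Where a gene has several probe sets their identifiers are given, and the upper Rpl22 and Rps4l rows are the first probe sets of the text. Of the 30, 28 lie within 0.25 of 0, and the first Rpl22 probe set at 0.75 lies farthest out.

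Rpl22, the large-subunit protein that alpha-beta T cell precursors depend on in mice, had the largest difference of the 30. Its first probe set had intensities of 1058.1, 945.0 and 1071.9 in double mutant thymocytes, compared with 558.9, 658.5 and 586.3 in the RAG1-deficient arrays. Every double mutant array lay above every RAG1-deficient array, and this was the only tested ribosomal protein probe set of which that held. The means were 1025 ± 69.6 in the double mutant and 601.2 ± 51.5 in RAG1-deficient thymocytes (SD, n = 3 each), 1.68-fold on the log2(intensity + 23) scale. The log2 difference was 0.75 ± 0.20 (SE), with a 95% interval of 0.29 to 1.21, and it was 0.89, 0.51 and 0.85 in the numbered, Rag and Thy pairs.

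This difference did not pass adjustment over all tested probe sets. In limma the adjusted p of Rpl22 was 0.649 without pairing and 0.0805 with it, from unadjusted p of 0.00518 and 0.000938. These unadjusted p ranked 61 and 89 among the 7642 tested probe sets. An exact permutation test gave p = 0.1, its lower limit with 3 arrays a group. Without the RAG1-deficient numbered array, which carried the Cd8a signal, the log2 difference of Rpl22 was 0.70, and without the RAG1-deficient Thy array it was 0.73. With the Rag pair left out, the paired fit passed Rpl22 (0.87, limma adjusted p = 0.0178), a fit that rests on 2 arrays a group and called 191 probe sets in all.

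The second Rpl22 probe set did not show the difference. It was dim and scattered, with 114.4, 96.6 and 63.6 in double mutant thymocytes, compared with 268.9, 28.4 and 57.0 in the RAG1-deficient arrays. The double mutant values lay inside the RAG1-deficient range. Its log2 difference was 0.082, with a 95% interval from -1.39 to 1.55 that includes the value of the first probe set. The pairs gave -1.09, 1.22 and 0.11, and averaged over both probe sets Rpl22 stood at 0.42 (paired limma adjusted p = 0.44).

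**Figure D2:**
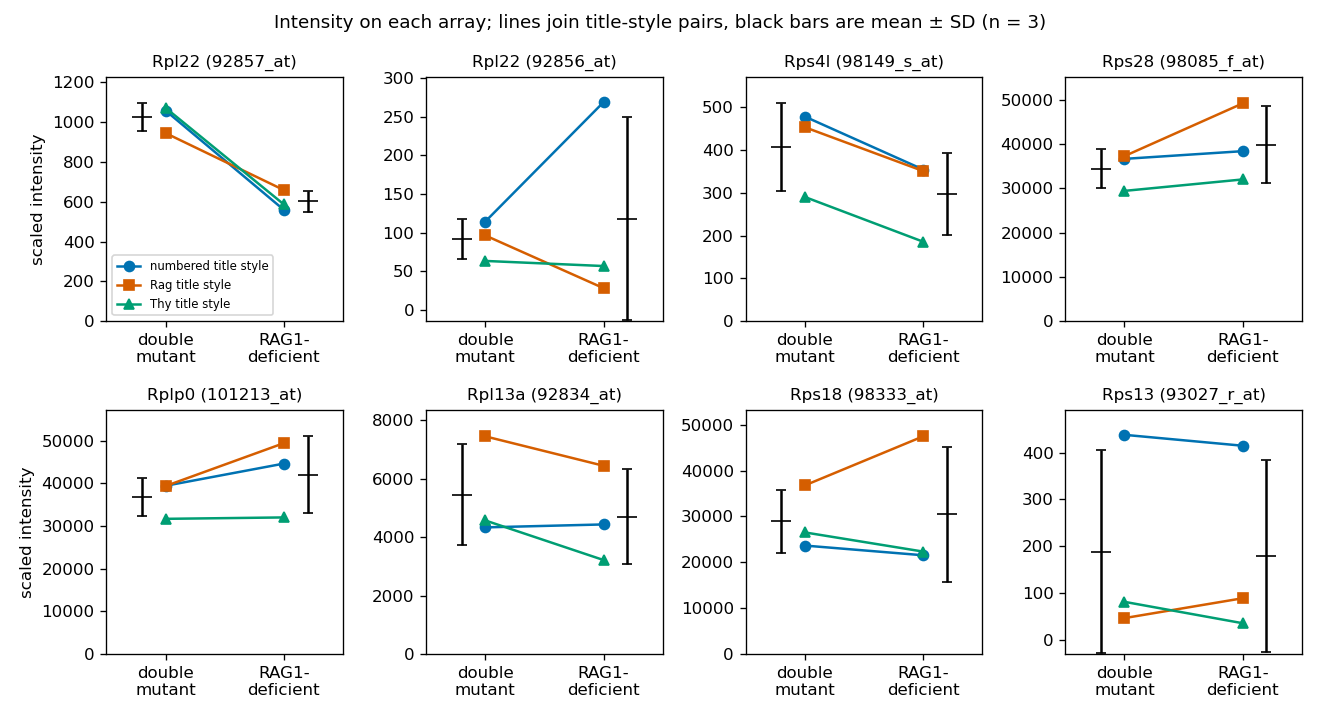
Intensity (vertical axes, linear) of 8 ribosomal protein probe sets on each array, double mutant left of RAG1-deficient, with the mean and SD of each group (n = 3, black bars) and a line joining the arrays of a title pair. Groups are separate in the first Rpl22 probe set, at 945.0 to 1071.9 against 558.9 to 658.5, and overlap in the other panels.

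Rplp0, the base of the stalk of the large subunit that recruits elongation factors, had 39448.1, 39393.3 and 31701.6 in double mutant thymocytes, compared with 44654.4, 49448.0 and 32031.7 in the RAG1-deficient arrays. The groups overlapped, although each pair lay below 0 (-0.18, -0.33 and -0.015). Its log2 difference was -0.17 ± 0.25 (SE, unpaired fit), and it did not pass (paired limma adjusted p = 0.536). The other stalk proteins Rplp1 and Rplp2, and Rpl5 and Rpl11, which bind 5S ribosomal RNA, had no probe set assigned to them alone, nor had Rps6, Rps27a and Rpl10. Of the proteins at the rim of the peptide exit tunnel, Rpl19, Rpl22 and Rpl38 gave 4 tested probe sets, 3 above and 1 below 0. Those above were the Rpl22 probe sets already described and the dim Rpl38 one (0.071). Over all tested probe sets 49.6% lay above 0.

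Rpl13a, a large-subunit protein that in human monocytes also leaves the ribosome to silence inflammatory messengers, had the largest difference among the bright probe sets. Its intensities were 4335.7, 7451.5 and 4573.9 in double mutant thymocytes, compared with 4436.8, 6444.2 and 3218.3 in the RAG1-deficient arrays. Both groups peaked on the Rag array and overlapped. The log2 difference was 0.23 ± 0.32 (SE, unpaired fit), with -0.033, 0.21 and 0.50 in the pairs, and did not pass (paired limma adjusted p = 0.512).

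The remaining large-subunit genes lay closer to 0. Rpl10a, near the exit site for transfer RNA, gave log2 differences of 0.10 and 0.049 on its probe sets. Rpl19, which bridges the subunits, had 34011.5, 32539.3 and 21464.7 in double mutant thymocytes, compared with 35206.0, 39734.2 and 23938.2 in the RAG1-deficient arrays, a log2 difference of -0.17 with every pair below 0. Rpl41, which encodes a very short basic protein, had 59346.3, 43847.2 and 34245.8 in double mutant thymocytes, compared with 63891.4, 56171.3 and 34323.9 in the RAG1-deficient arrays. Its log2 difference of -0.16 turned to 0.025 with quantile scaling. Rpl6, Rpl7, Rpl7a, Rpl8, Rpl37a and Rpl38 lay between -0.095 and 0.071, and none of these genes passed in either limma fit.

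In the small subunit the highest value came from Rps4l, a gene related to Rps4x. Its first probe set, with the suffix _s_at that marks probes shared by related transcripts, had 478.5, 453.6 and 290.4 in double mutant thymocytes, compared with 354.6, 351.0 and 185.7 in the RAG1-deficient arrays. The double mutant array was the higher one in every pair, by 0.41, 0.35 and 0.59, but the groups overlapped because both Thy arrays were low. The log2 difference was 0.45 ± 0.32 (SE) in the unpaired limma fit, with an unadjusted p of 0.197. Limma with pairing had an SE of 0.16 and gave an adjusted p of 0.305 (unadjusted p = 0.0239). Without the RAG1-deficient Thy array the log2 difference was 0.17.

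The second Rps4l probe set gave a value below 0. It had 85.0, 60.5 and 113.6 in double mutant thymocytes, compared with 156.5, 30.0 and 136.3 in the RAG1-deficient arrays, a log2 difference of -0.10 with pairs of -0.73, 0.66 and -0.22. Averaged over both probe sets the gene stood at 0.17. Rps4x itself, the X-linked gene of this protein, had 34315.6, 33510.9 and 26197.5 in double mutant thymocytes, compared with 32337.7, 37296.9 and 24914.1 in the RAG1-deficient arrays. The groups overlapped, with a log2 difference of 0.0012 (paired 95% interval from -0.24 to 0.24).

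Rps28, a small-subunit protein at the exit of the messenger channel, was read by 3 tested probe sets. The one with the suffix _f_at had 36657.6, 37282.0 and 29423.3 in double mutant thymocytes, compared with 38400.9, 49208.0 and 32014.1 in the RAG1-deficient arrays. Its log2 difference of -0.20 ± 0.25 (SE, unpaired fit) was the lowest of all 30, with every pair below 0 and the groups overlapping (paired limma adjusted p = 0.488). The one with the suffix _r_at gave -0.16 and the one without a suffix 0.021, so the probe sets of this gene lay on both sides of 0.

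Rps19, the gene most often mutated in human Diamond-Blackfan anaemia, had 31484.4, 38902.9 and 27870.8 in double mutant thymocytes, compared with 28397.4, 41183.8 and 22451.3 in the RAG1-deficient arrays. The groups overlapped, with a log2 difference of 0.13 ± 0.28 (SE). Of the ribosomal protein genes linked to this failure of red cell production, 10 probe sets of 8 genes were tested, and 3 lay above and 7 below 0, with a median of -0.064. Among them Rps7 stood at -0.14, Rps27 at -0.15 and Rps29 at 0.079 on the log2 scale, and 0 passed in either limma fit (also 0 at an unadjusted p under 0.05).

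Rpsa, a small-subunit protein also known as the laminin receptor, had 7498.9, 11744.4 and 9022.1 in double mutant thymocytes, compared with 6710.0, 11961.2 and 7899.4 in the RAG1-deficient arrays, a log2 difference of 0.11 ± 0.29 (SE) with overlapping groups. Rps3, at the entry of the messenger channel, stood at -0.13 with every pair below 0, and Rps10 and Rps18 at -0.034 and 0.0047. Rps13, which lies where the subunits meet, had 437.9, 46.8 and 81.5 in double mutant thymocytes, compared with 414.6, 89.2 and 35.8 in the RAG1-deficient arrays. Both numbered arrays were high and the others low, whichever the genotype, and the log2 difference was 0.073. The tested Rps24 probe set (-0.078) carries the same GenBank entry in the annotation as the Rpl7 one (-0.064), so these cannot be counted as separate evidence.

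The same direction in all 3 pairs was seen in 2 probe sets above 0, of Rpl22 and Rps4l, and in 6 below 0, of Rpl19, Rpl41, Rpl6, Rplp0, Rps28 and Rps3. That is 26.7% of the 30, against 35.9% of all tested probe sets.

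Arrays also differed by title wording. The gap between the highest and the lowest pair mean exceeded the difference between the groups in 29 of the 30 probe sets (96.7%), against 88.4% of all tested probe sets. The median gap was 0.67 and the median absolute group difference 0.098, against 0.62 and 0.17 over all tested probe sets. A range over 3 means tends to exceed a difference between a pair of means, so the share is a description and no comparison of title wording with genotype. The exception was the first Rpl22 probe set, with a gap of 0.042. The Rag pair was the highest in 19 of the 30 and the Thy pair the lowest in 20. The same shares over all tested probe sets were not counted. The median deviation from a probe set's mean was 0.054, 0.11 and -0.23 in the double mutant and 0.062, 0.27 and -0.31 in the RAG1-deficient arrays.

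Single genes give examples. Rps18, of the head of the small subunit, had 23648.6, 36760.7 and 26515.2 in double mutant thymocytes, compared with 21534.3, 47450.5 and 22334.6 in the RAG1-deficient arrays, so both Rag arrays were the highest of their group. The Rag pair exceeded the mean of the other pairs by 0.83 for Rps18, 0.89 for the Rps28 probe set without a suffix, 0.75 for Rpl13a and 0.69 for Rps10 on the log2 scale. It lay below them by a log2 difference of -1.08 for Rps13 and -0.73 for Rpl38. These probe sets were dim, at 35.8 to 437.9 and 56.2 to 141.8, and exceeded the filter on only 3 of the 6 arrays. Among the 21 probe sets with a mean intensity over 1000 the Rag pair was the highest in 18 and the lowest in 0. The actin 3' control, at 5826.4 and 4447.9 on the Rag arrays, lay at 23267 to 35475 on the other double mutant and 26336 to 38661 on the other RAG1-deficient arrays. Of the erythroid list, Hba-a1 had 29863.7, 16351.6 and 794.2 in double mutant thymocytes, compared with 26474.8, 30030.9 and 374.6 in the RAG1-deficient arrays. In each group Hba-a1 was thus lowest on the Thy array, as was Alas2, whereas Klf1 was not. The part of these measures in the gaps was not tested.

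**Figure D3:**
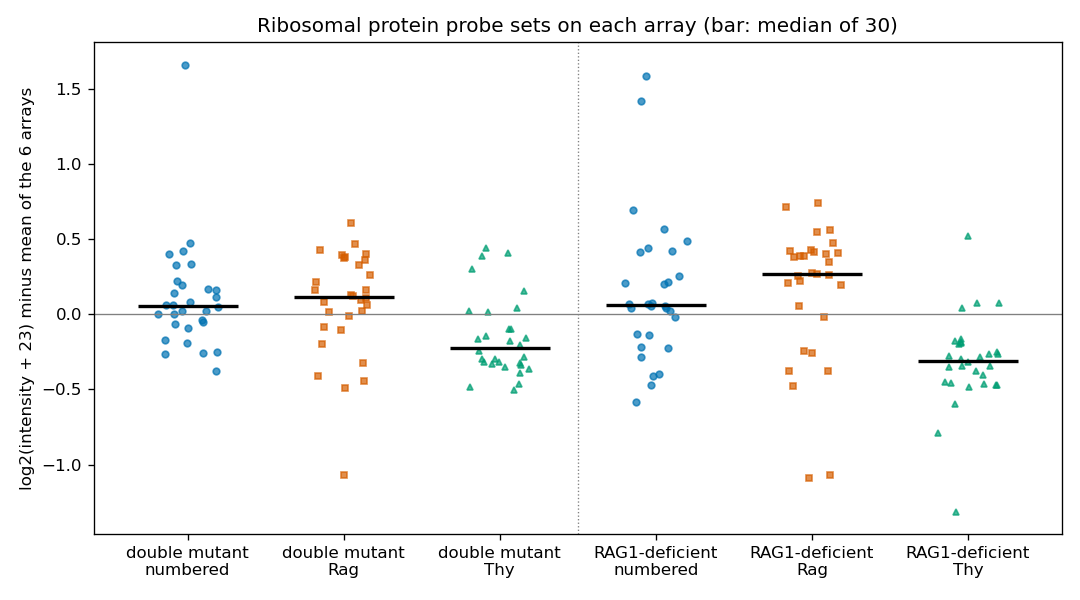
Deviation of each tested ribosomal protein probe set from its mean over the 6 arrays (log2 scale), with the 3 double mutant arrays left of the 3 RAG1-deficient arrays and a bar at each median. Array medians run from -0.31 on the RAG1-deficient Thy array to 0.27 on the RAG1-deficient Rag array.

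The pairs also differed in the sign of the genotype difference. In the Rag pair 24 of the 30 lay below 0, with a median of -0.17, while all tested probe sets had a median of 0.0092. In the numbered pair the median was -0.023 with 16 below 0, and in the Thy pair 0.074 with 12 below 0. Of the 21 bright probe sets, 20 lay below 0 in the Rag pair, 11 in the numbered and 10 in the Thy pair. Each pair is 1 array against 1, so these medians have no test.

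The 17 probe sets under the filter had intensities between 3.9 and 118.9, and 11 of them never exceeded the filter on any array. Groups without overlap occurred in 0 of the 17, where 4.21% of all tested probe sets lay higher and 2.92% lower without overlap. The share over all probe sets under the filter was not counted. The 17 include every probe set of Rpl32, Rpl35a, Rpl39, Rpl39l, Rps14, Rps15, Rps20 and Rps27l, so these genes gave no tested value. Rpl39l and Rps27l are the paralogs of Rpl39 and Rps27 among the genes. Further dim probe sets belong to Rpl7, Rpl19, Rpl38, Rps4x, Rps24 and Rps29, each of which had another probe set that was tested. Another 38 probe sets were annotated to several genes of which at least 1 was ribosomal and were not used as members. Of these 33 were tested, with 14 above and 19 below 0, a median of -0.042 and 0 passing in either limma fit (1 higher and 1 lower with an unadjusted p below 0.05 when paired).

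Genes that build or drive the ribosome were read beside its proteins. No member of 6 lists passed in either limma fit, and counts with an unadjusted p below 0.05 in limma with pairing are given for each, to be read against 7.73% higher and 5.4% lower over all tested probe sets. Ribosome biogenesis factors, which process ribosomal RNA and assemble the subunits, gave 47 tested probe sets, with 39 above and 8 below 0 and a median of 0.12, against 49.6% above 0 and a median of -0.0021 over all tested probe sets. Medians of the pairs were 0.13, 0.14 and 0.10, and 4 were higher and 0 lower with an unadjusted p below 0.05. The helicase gene Ddx18 had 731.9, 263.9 and 813.2 in double mutant thymocytes, compared with 642.5, 156.1 and 272.8 in the RAG1-deficient arrays, with overlap and a log2 difference of 0.79 (paired adjusted p = 0.252), and its other probe set gave 0.31. With arrays or pairs left out the first Ddx18 value lay between 0.35 (without the RAG1-deficient Rag array) and 1.30 (without the RAG1-deficient numbered array), and it passed without the Rag pair (adjusted p = 0.0402). Rrs1, which brings 5S RNA into the large subunit, stood at 0.29 (paired adjusted p = 0.381), and between 0.17 and 0.42 with arrays or pairs left out.

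RNA polymerases I and III, which make ribosomal and transfer RNA, gave 15 above and 9 below 0, with a median of 0.039 and 1 higher and 2 lower with an unadjusted p below 0.05. Taf1c, a subunit of the selectivity factor of polymerase I, had 684.0, 763.8 and 538.3 in double mutant thymocytes, compared with 1020.3, 1864.3 and 1037.4 in the RAG1-deficient arrays. The groups did not overlap, yet the log2 difference of -0.91 did not pass (paired limma adjusted p = 0.0655). Gtf3a, the factor that starts transcription of the 5S genes, did not overlap either, at 463.3, 376.3 and 448.2 in double mutant thymocytes, compared with 294.4, 304.6 and 313.5 in the RAG1-deficient arrays (log2 difference 0.46, paired limma adjusted p = 0.292). Another Gtf3a probe set gave 0.076.

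Myc and mTOR regulators gave 7 above and 14 below 0, with a median of -0.057 and 2 higher and 1 lower with an unadjusted p below 0.05. Mxd4, an antagonist of Myc, had 2415.9, 4668.5 and 1527.1 in double mutant thymocytes, compared with 3778.4, 7610.9 and 3518.0 in the RAG1-deficient arrays. The double mutant array was the lower one in each pair, the groups overlapped, and the log2 difference of -0.84 did not pass (paired limma adjusted p = 0.0526). With arrays or pairs left out the Mxd4 value lay between -1.27 (without the double mutant Rag array) and -0.47 (without the double mutant Thy array), and it passed without the Rag pair (adjusted p = 0.000905). Eif4ebp1, the translation repressor that mTOR inactivates, had 247.5, 214.9 and 167.5 in double mutant thymocytes, compared with 168.6, 114.3 and 75.8 in the RAG1-deficient arrays, a log2 difference of 0.75 with overlap by a narrow margin (paired limma adjusted p = 0.218). Myc stood at 0.13, and Mtor at -0.17 and 0.22 on its probe sets.

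Translation factors went both ways. Initiation factors gave 23 above and 14 below 0, with a median of 0.068 and 2 higher and 1 lower with an unadjusted p below 0.05. Among them Eif3e, a subunit of the factor that holds the small subunit, had a log2 difference of 0.65 (paired limma adjusted p = 0.113) on 1 probe set, between 0.39 and 0.99 with arrays or pairs left out, and -0.077 on another. Eif4e2, a cap-binding repressor, had -0.58 without overlap (paired limma adjusted p = 0.318), and -0.33 without the double mutant numbered array. Its other probe set gave -0.50 with overlapping groups and pairs of -0.83, 0.73 and -1.40. The elongation list, which holds Btf3, Naca and Tpt1 besides elongation factors, gave 3 above and 5 below 0, with a median of -0.12. With an unadjusted p below 0.05 in limma with pairing, 1 was higher (Btf3, log2 difference 0.27) and 1 lower (Eef1b2). Eef1b2, which reloads the elongation factor that carries transfer RNA, had 130.4, 182.3 and 155.7 in double mutant thymocytes, compared with 303.7, 222.2 and 297.5 in the RAG1-deficient arrays. These groups did not overlap, and the log2 difference of -0.73 did not pass (paired limma adjusted p = 0.24). Eef1d, of the same exchange complex, stood at 0.21.

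Mitochondrial ribosomal proteins, of the separate ribosome inside mitochondria, gave 42 above and 25 below 0, with a median of 0.050 and 3 higher and 0 lower with an unadjusted p below 0.05. Their pair medians were 0.061, 0.14 and 0.0055, while those of the cytosolic set were -0.023, -0.17 and 0.074. Whether the lists differ was not tested. Mrps22 and Mrps11, of the small mitochondrial subunit, had log2 differences of 0.56 and 0.46 (paired limma adjusted p = 0.228 and 0.278), and Mrps22 lay between 0.37 and 0.72 with arrays or pairs left out. A further list held 3 genes of ribosomal or ribosomal-like proteins whose symbols fall outside the rule. Of these Rps3a1 stood at -0.11 and Rpl7l1 at -0.27, neither of which passed, and Fau was under the filter.

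**Figure D4:**
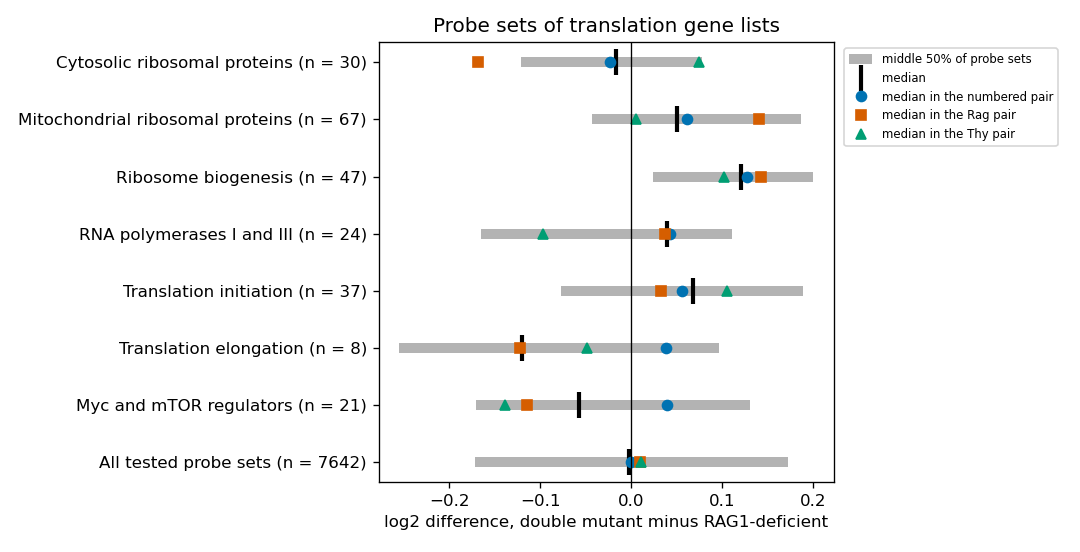
Log2 difference, double mutant minus RAG1-deficient, of the tested probe sets of the cytosolic ribosomal protein genes, of 6 other translation lists and of the whole array. Grey bars span the middle 50% of probe sets, black ticks are medians and coloured symbols are medians within each title pair. List medians lie between -0.12 for the elongation list and 0.12 for ribosome biogenesis factors, with the cytosolic ribosomal proteins at -0.016.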

How the data were processed

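The deposited table holds linear intensity values of 12488 probe sets on 6 single-colour arrays, made by the authors with software that is not given in the sources used here. Trimmed means lay between 500.293 and 500.37 on all arrays, so the deposited scaling was kept; a change common to most transcripts cannot be seen after it. The 66 control probe sets were left out. Gene names came from the platform annotation, matched to RefSeq for all 33 genes. Values were tested as log2(intensity + 23), after the filter, with limma 3.58.1 in R 4.3.3 (lmFit, eBayes with trend, two-sided, Benjamini-Hochberg over 7642 probe sets), with and without title wording as a block. This scale understates changes of dim probe sets. The procedure was tested on simulated data. Deviations of same-title arrays correlated at 0.57 (numbered), 0.736 (Rag) and 0.602 (Thy), which reads the pairing from titles and data; no label states it. Figures used matplotlib 3.10.9. Members and lists were chosen with earlier results of these data known. The rule for names took the 8 highest and 8 lowest members, those under the filter, set role genes such as Rpl22 and Rps19, and the 2 smallest p of each other list. Sequences were read from the RefSeq table. Alternatives changed the pseudocount, filter, scaling, trend, averaging and arrays; those joined with the block were added after seeing the data. The number of arrays limits the precision.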

Additional observations from a re-analysis of the deposited data

How the results depend on the processing

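The count of ribosomal protein probe sets past the threshold was 0 in either direction with and without the replicate block and under every alternative run but 1: without the Rag pair, the fit with the replicate block called Rpl22, so that leaving out arrays gave counts of 0 to 1 higher. The lowest adjusted p of Rpl22 with the replicate block and all arrays was 0.0727 (pseudocount 100) and the highest, for its probe sets taken singly, 0.209 (no trend). The median over the ribosomal proteins lay between -0.165 and 0.064 with arrays or pairs left out, and was 0.031 with quantile scaling. Among the other lists, 1 Myc and mTOR regulator (Mxd4) fell with the replicate block at a pseudocount of 100 or averaged per gene, and 0 to 1 with arrays left out. Averaged per gene with the replicate block, 1 polymerase member (Taf1c) fell. Leaving out arrays gave 0 to 1 biogenesis factors as higher (Ddx18, without the Rag pair). Without a called change, log2 differences took the other sign in some settings, with and without the block. Rpl22 (second probe set) was -0.036 at a pseudocount of 100, and Rpl41 was 0.025 with quantile scaling. Averaged per gene, Mtor (probe sets at -0.17 and 0.22) stood at 0.027 and Rps4l (probe sets at 0.45 and -0.10) at 0.17. These averages are values of the gene, and no single probe set changed sign in them. With arrays or pairs left out the log2 difference ranged from -0.13 to 0.36 for Myc, -0.11 to 0.40 for Rpl10a, -0.020 to 0.48 for Rpl13a, -0.38 to 0.046 for Rpl19, and -0.49 to 0.81 for Rpl22 (second probe set). It ranged from -0.42 to 0.036 for Rpl41, -0.076 to 0.36 for Rps19, -0.32 to 0.028 for Rps27, -0.16 to 0.31 for Rps29, and -0.31 to 0.036 for Rps3. It ranged from -0.66 to 0.22 for Rps4l (second probe set), -0.16 to 0.13 for Rps4x, -0.30 to 0.036 for Rps7, and -0.070 to 0.35 for Rpsa. The first Rpl22 probe set stayed between 0.68 and 0.87 in these fits. The causes were not tested. Leaving out 1 array of a title pair lets differences between title wordings enter the comparison. Dim probe sets, such as the second ones of Rpl22 and Rps4l, limit what can be read from single genes.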
